A study of Mus musculus with 9 samples.

Results

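Of the 9 arrays of the series, 6 (3 for each of 2 siRNAs) were used to ask whether mRNAs disappear at a different rate when Mbnl1 or Cugbp1 is depleted. The cells were C2C12, an established mouse myoblast line, and 1 siRNA was directed at Mbnl1 and the other at Cugbp1, the older name of Celf1. A control siRNA was run in the same way and is given here as the reference course. Transcription was stopped with 5 ug/ml actinomycin D, and total RNA was taken at 0, 2.5 or 5 h, with 1 array for each siRNA and time. The same line, medium and drug were shared by every arm, and the 0 h samples stand for the knocked-down cells at the start of the block. For each of 9864 genes above a filter on signal, of 19938 named on the array, the log2 change from 0 h was computed within each arm, and the change under Cugbp1 siRNA was subtracted from that under Mbnl1 siRNA. A positive difference therefore means a smaller loss, or a larger rise, under Mbnl1 siRNA. The comparison is thus of changes and not of levels, although the 0 h arrays enter every change and a signal near its floor cannot fall further.

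Once RNA synthesis is blocked, the fall of a transcript reflects its degradation, and short-lived mRNAs such as those of immediate early genes drop first. CUGBP1 binds GU-rich sequences in mRNAs and is known for promoting deadenylation and decay. MBNL1 is best known as a splicing regulator whose sequestration by expanded CUG repeats contributes to myotonic dystrophy, and it also binds the 3′ ends of many mRNAs. Both proteins are active in myoblasts, where several muscle and growth regulators have short-lived mRNAs.

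The arrays had median intensities of 104.92 to 113.01 and correlated with each other at 0.920 to 0.994 on the log2 scale. Celf1 signal under Cugbp1 siRNA was 30.9%, 22.1% and 21.6% of that in the control arm at 0, 2.5 and 5 h. Mbnl1 signal under Mbnl1 siRNA was 22.0%, 18.3% and 15.9% of control. Celf1 was also at 61.5% to 72.4% of control in the Mbnl1 arm, whereas Mbnl1 was at 93.4% to 98.9% in the Cugbp1 arm. The myoblast markers Myod1, Myf5, Des and Cdh15 had log2 signals between 8.79 and 13.19 on all 9 arrays. Of the adipocyte markers 2 of 9 passed the filter, of the bone and cartilage markers 2 of 8, of the fibroblast markers 6 of 9 and of the macrophage and leukocyte markers 2 of 10. The summed log2 level of the last list was 10.02 to 10.15 under Cugbp1 siRNA and 10.43 to 10.68 under Mbnl1 siRNA, and the other 3 lists overlapped between the arms. Whether any such cells were present, or had a part in the results, was not tested.

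A straight line over hours was fitted per siRNA with limma, on top of a time course shared by all arms, and the difference of the hourly slopes was tested. Of the 9864 genes, 84 had a lower slope under Mbnl1 siRNA than under Cugbp1 siRNA (0.852% of the genes tested) and 9 had a higher one (0.0912%), at a Benjamini-Hochberg adjusted p under 0.05. The adjusted p of these calls lay between 0.038 and 0.0499, close to the threshold. The differences over 5 h ran from -1.48 to -0.53 among the 84 genes, with a median of -0.72, against a median of -0.04 over all genes. Among the 9 genes they ran from 0.55 to 1.42. By size alone, with no test, 219 genes lay below -0.5 at 5 h (2.22%) and 38 above 0.5 (0.385%). No gene was called for a step, the change from 0 h to the mean of the 2 later times (0%), although 1067 genes had an unadjusted p under 0.05 in that limma test. For the slope, 1609 genes did.

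These calls were fragile. The fit had 2 residual degrees of freedom, and no arm has a second array at any time, so the errors given here measure departures from straight lines and not the spread between cultures. Leaving out any of the 3 Cugbp1 arrays, or the Mbnl1 array at 0 h, left 0 calls. Leaving out the Mbnl1 array at 2.5 h gave 418 lower and 56 higher slopes, without the Mbnl1 array at 5 h there were 35 and 8, and without any 1 control array there were 28 and 5. Shifting every array to the same median over all tested genes also left 0 calls, while shifting to the same median of cytosolic ribosomal protein genes gave 299 lower and 13 higher. Omitting a control array gives the same fit as using only the 6 compared arrays, whichever one is omitted. Of the 19 alternative fits 12 leave the estimates of the called genes as they were. Those bear on the errors and, where the filter differs, also on the number of genes in the p-value adjustment.

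**Figure D1:**
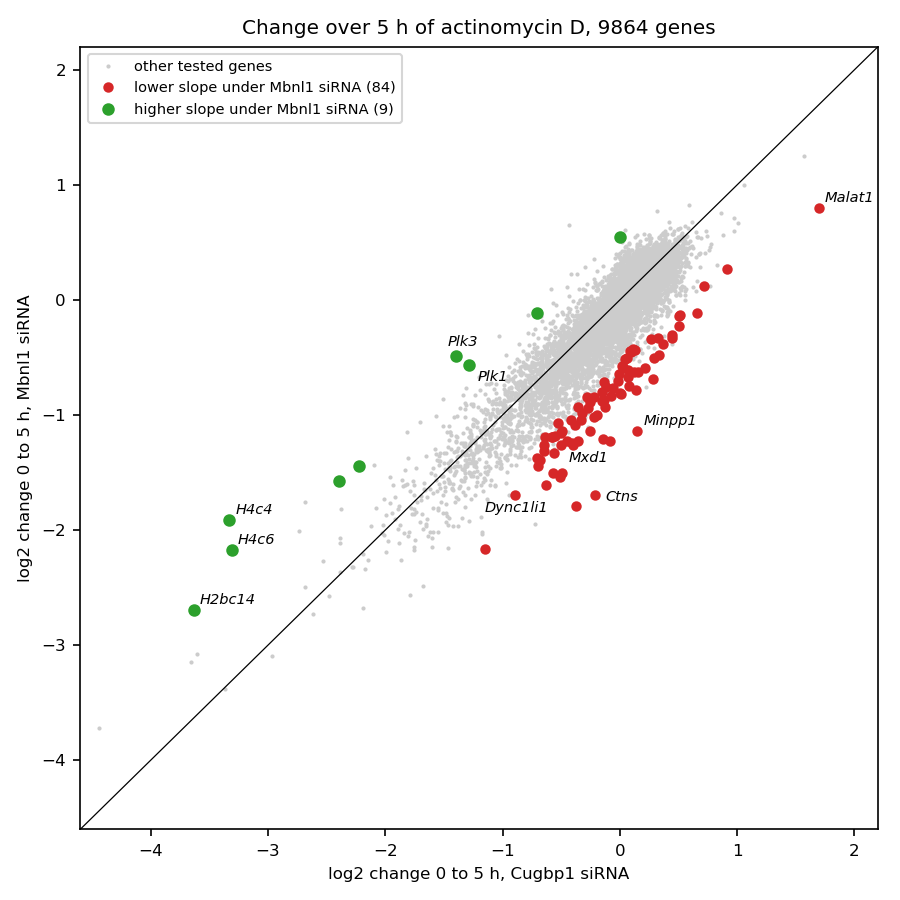
The log2 change from 0 to 5 h of each of the 9864 tested genes under Cugbp1 siRNA (horizontal) is plotted against that under Mbnl1 siRNA (vertical), and the diagonal marks equal change. Red points are the 84 genes with a lower slope and green points the 9 genes with a higher slope under Mbnl1 siRNA; H4c4, at -3.33 and -1.91, lies farthest above the diagonal, and Ctns, at -0.21 and -1.69, farthest below.

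Replication-dependent histone mRNAs led the smaller group. These mRNAs end in a stem-loop instead of a poly(A) tail and are degraded when DNA synthesis stops. Of 31 such genes on the array 16 passed the filter, 4 were called higher in slope under Mbnl1 siRNA, against 0.0912% of all genes, and none was called lower. The median difference over the 16 was 0.49 at 2.5 h and 0.61 at 5 h, and 14 of them were above 0. By size alone, 11 of the 16 exceeded 0.5 at 5 h, against 0.385% of all genes. At the median 17.4% of the 0 h signal was left at 5 h under Cugbp1 siRNA, 28.9% under Mbnl1 siRNA and 21.9% under control siRNA. The same 16 genes had a median level difference at 0 h of -0.44, with 14 lower under Mbnl1 siRNA, and of 0.13 at 5 h. The arms were closer at 5 h than at 0 h in 10 of the 16, among them 3 of the 4 called genes. H2bc3, not called, went from 11.13 and 10.40 under Cugbp1 and Mbnl1 siRNA to 6.69 and 6.68, so its difference of 0.72 is nearly all present at the start. An error in a 0 h array, or a floor of signal, would give a lower start with a smaller fall, as seen here and in 8 of the 9 genes with a higher slope, and its part in the result was not tested. Histone genes are near-identical copies, so probe sets may read more than one of them.

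The 4 called histone genes lie on chromosome 13, and their promoters are shown with that of H1f2, a linker histone gene of the same chromosome whose difference had the opposite sign. Each line gives 70 bases before to 30 bases from the annotated start (RefSeq, GRCm38.p6). Capitals mark matches to TATANA on either strand between 45 and 15 bases before the start, where a TATA box usually lies, with overlapping matches joined.
H4c4, chr13:23581498-23581597, plus strand: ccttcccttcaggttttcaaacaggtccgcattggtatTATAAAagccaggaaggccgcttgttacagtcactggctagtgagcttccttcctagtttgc
H4c6, chr13:23551639-23551738, minus strand: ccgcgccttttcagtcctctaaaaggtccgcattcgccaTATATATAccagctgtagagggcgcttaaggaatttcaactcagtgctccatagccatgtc
H2bc14, chr13:21721974-21722073, plus strand: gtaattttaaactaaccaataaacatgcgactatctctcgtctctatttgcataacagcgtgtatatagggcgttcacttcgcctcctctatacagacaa
H1f1, chr13:23763598-23763697, plus strand: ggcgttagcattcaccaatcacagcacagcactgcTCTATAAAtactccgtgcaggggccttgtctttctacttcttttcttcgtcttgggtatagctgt
H1f2, chr13:23738737-23738836, plus strand: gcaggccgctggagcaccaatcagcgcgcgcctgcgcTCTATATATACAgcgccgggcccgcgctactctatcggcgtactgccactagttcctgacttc
The motif was found in this window in 8 of the 14 tested histone genes with a promoter in the table, and in 4.32% of all 32851 promoters. It was present in H1f2 and absent from the window of H2bc14.

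H4c4 encodes histone H4. Its log2 signal at 0, 2.5 and 5 h was 13.74, 11.11 and 10.41 under Cugbp1 siRNA, 13.63, 11.92 and 11.72 under Mbnl1 siRNA and 13.89, 12.28 and 11.96 under control siRNA. The arms started within 0.26 of each other, and at 5 h 9.95% of the signal was left under Cugbp1 siRNA, 26.6% under Mbnl1 siRNA and 26.2% in the control. The difference was 0.92 at 2.5 h and 1.42 at 5 h (SE 0.17 from the limma fit, adjusted p = 0.038), a factor of 2.67. H4c6, a second H4 gene, went from 11.24 to 8.25 and 7.92 under Cugbp1 siRNA and from 10.48 to 8.11 and 8.30 under Mbnl1 siRNA, with 11.10, 8.74 and 8.54 in the control. Its difference at 5 h was 1.13 (SE 0.15, adjusted p = 0.038), and its Mbnl1 arm began 0.76 lower. In both H4 genes the control course lay nearer the Mbnl1 arm.

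H2bc14 encodes a core histone H2B. Its log2 signal at 0, 2.5 and 5 h was 12.99, 9.71 and 9.36 under Cugbp1 siRNA, 12.33, 9.61 and 9.63 under Mbnl1 siRNA and 12.92, 9.80 and 9.39 under control siRNA. Here the Mbnl1 arm was the one that stood apart, with 15.4% left at 5 h against 8.05% and 8.64%, and the difference was 0.94 (SE 0.10, adjusted p = 0.038). H1f1, a linker histone, kept 36.9% under Mbnl1 siRNA, 21.4% under Cugbp1 siRNA and 21.8% in the control. The difference was 0.79 (SE 0.11, adjusted p = 0.0411 by limma). H1f1 stood at 9.96, 7.79 and 7.74 at 0, 2.5 and 5 h under Cugbp1 siRNA. Under Mbnl1 siRNA it stood at 9.34, 7.72 and 7.90, and in the control at 9.82, 7.70 and 7.62. The H1f1 level difference at 0 h, Mbnl1 minus Cugbp1 siRNA, was -0.62, so most of the 0.79 was present at the start. Across the 5 H4 genes tested the control change at 5 h was nearer that under Mbnl1 siRNA in 4, and across the other 11 histone genes it was nearer that under Cugbp1 siRNA in 7. The difference between these groups was not tested. H1f2 and H2bc4 had negative differences, -0.43 (adjusted p = 0.0745) and -0.21 (adjusted p = 0.294). Neither fell below 64.7% of its 0 h signal in these arms.

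**Figure D2:**
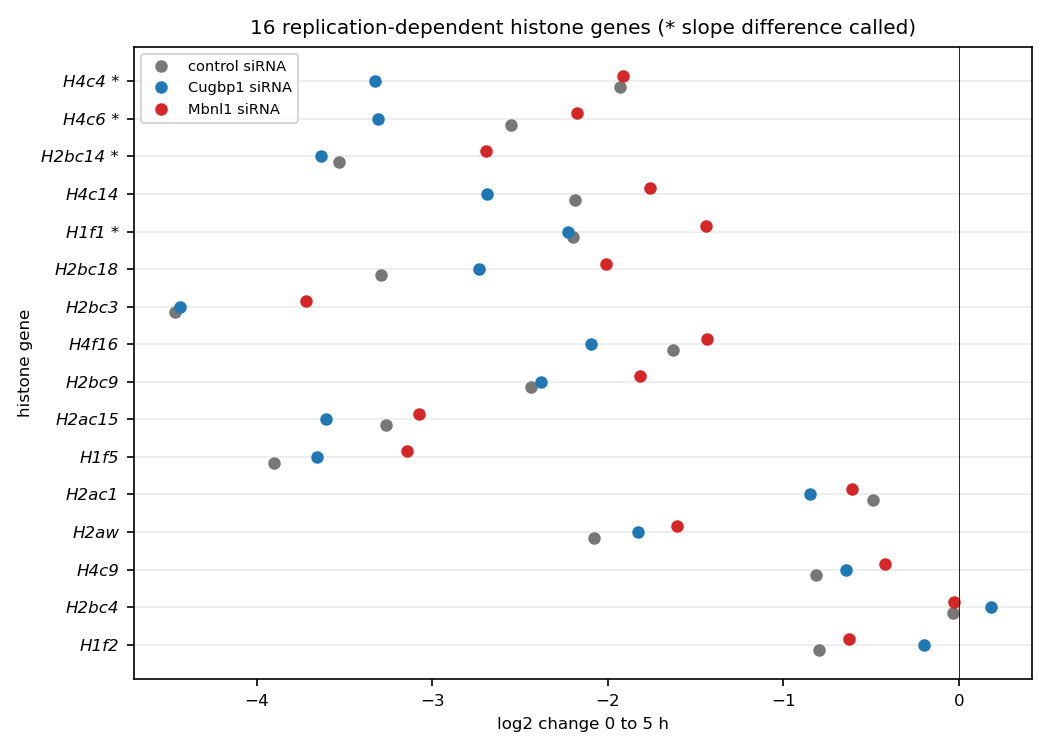
The log2 change from 0 to 5 h is plotted for the 16 tested histone genes (rows), with 1 point per siRNA and asterisks on the 4 called genes. Red points (Mbnl1 siRNA) lie to the right of blue points (Cugbp1 siRNA) in 14 rows, while grey control points lie next to red in H4c4 and next to blue in H1f1 and H2bc3.

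The other 5 genes with a higher slope under Mbnl1 siRNA included 3 cell-cycle or stress regulators. Plk3, a polo-like kinase induced by stress, had log2 signals of 10.64, 9.69 and 9.24 at 0, 2.5 and 5 h under Cugbp1 siRNA, 12.04, 11.70 and 11.55 under Mbnl1 siRNA and 10.86, 9.97 and 9.59 under control siRNA. It was the only called gene of this direction to start higher under Mbnl1 siRNA, by 1.40, and it kept 71.4% of its signal there against 37.9% and 41.6% (difference 0.91, SE 0.11, adjusted p = 0.038). The Mbnl1 values did not overlap those of the other arms, which overlapped each other. Plk1, the polo-like kinase of mitotic entry, kept 67.8% under Mbnl1 siRNA, 64.3% in the control and 41.1% under Cugbp1 siRNA (difference 0.72, adjusted p = 0.038). Ccnf, an F-box protein of the G2 phase, kept 33.6%, 18.3% and 19% in the same order (difference 0.82, adjusted p = 0.0432). The Cugbp1 arm thus lay apart from the control in Plk1, and the Mbnl1 arm in Plk3 and Ccnf. Zfp524, a zinc finger gene, kept 92.4% under Mbnl1 siRNA and 61.3% under Cugbp1 siRNA (difference 0.59, adjusted p = 0.0466). Vax1, a homeobox gene, had 146% and 100.0% of its 0 h signal at 5 h (difference 0.55, adjusted p = 0.0452).

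**Figure D3:**
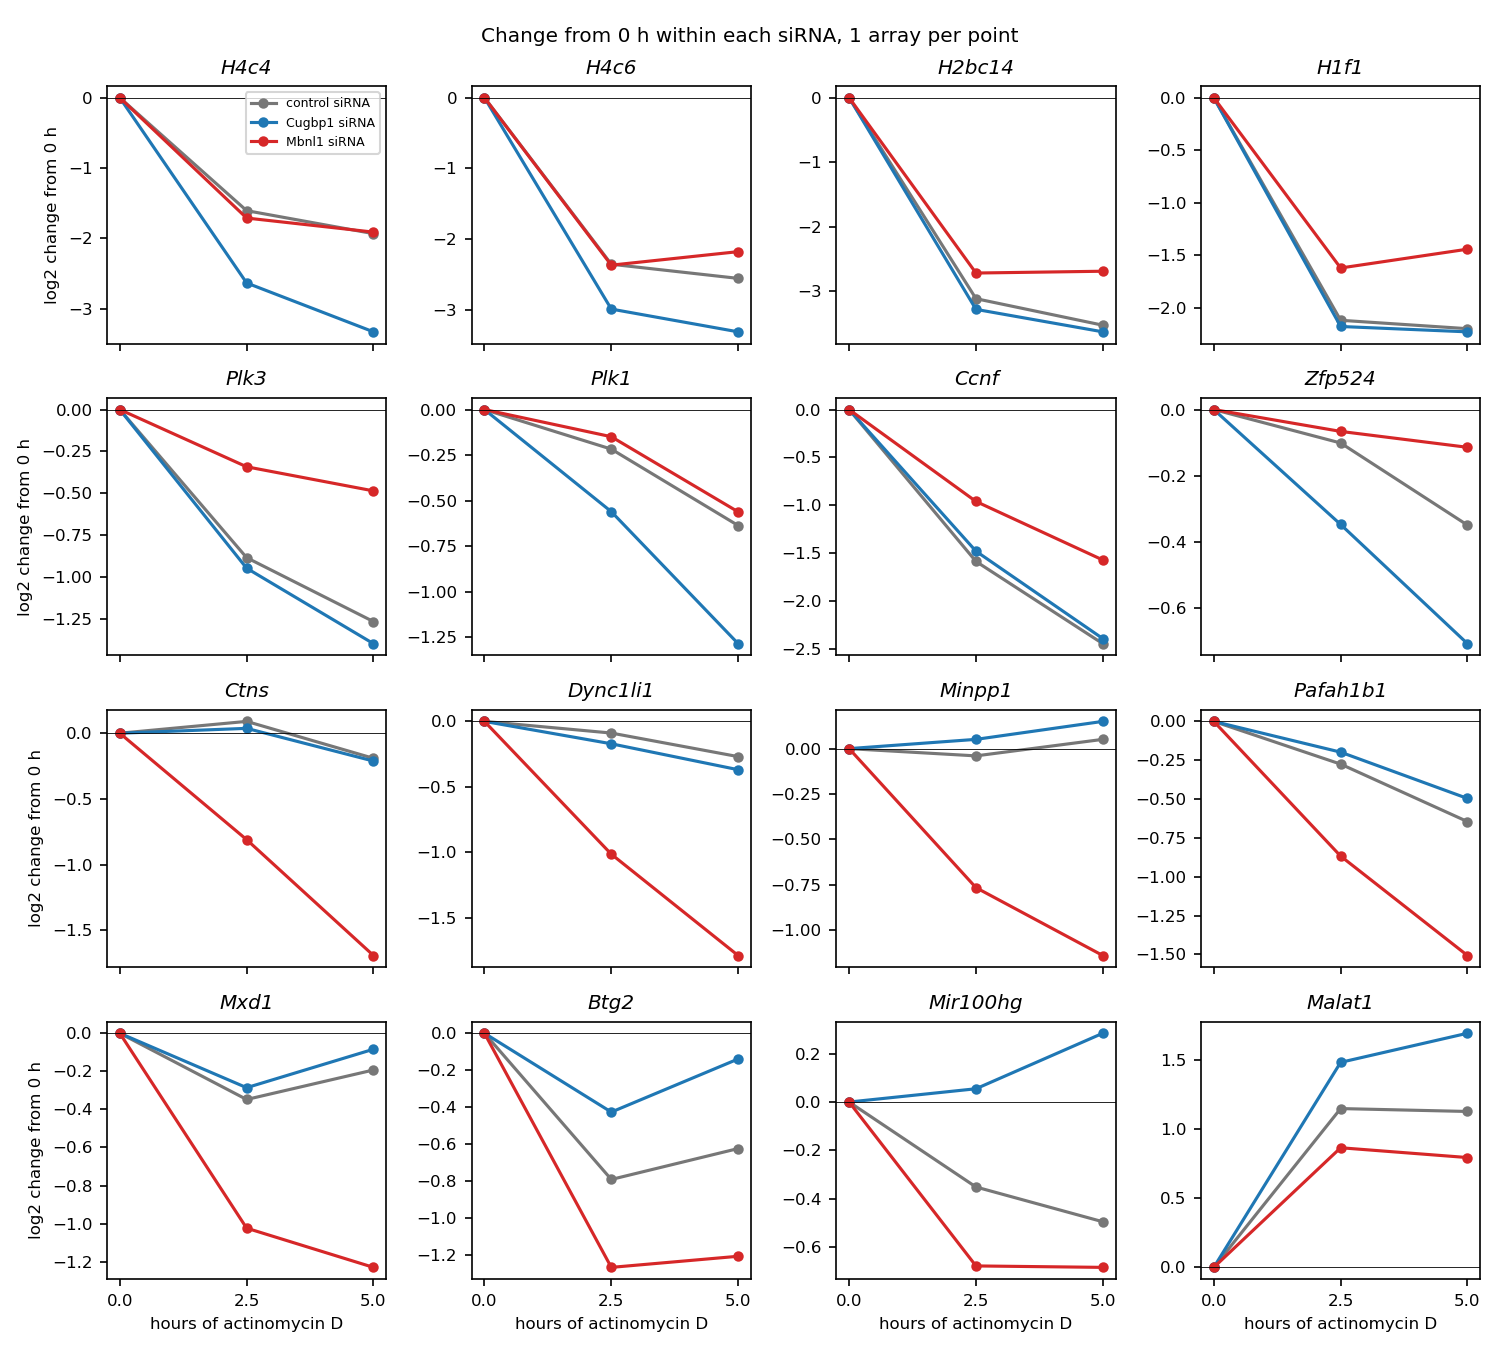
The log2 change from 0 h (vertical, own scale per panel) is plotted against hours of actinomycin D for 16 called genes, with 1 line per siRNA and 1 array per point. The first 8 panels hold genes with a higher slope under Mbnl1 siRNA and the last 8 genes with a lower one; in Ctns, Dync1li1, Minpp1 and Pafah1b1 the control line runs with the Cugbp1 line.

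Ctns, which encodes the lysosomal cystine transporter, showed the largest difference of either direction. Its log2 signal at 0, 2.5 and 5 h was 9.81, 9.85 and 9.60 under Cugbp1 siRNA, 8.90, 8.09 and 7.21 under Mbnl1 siRNA and 9.26, 9.35 and 9.07 under control siRNA. After 5 h 86.3% was left under Cugbp1 siRNA, 87.6% in the control and 31.0% under Mbnl1 siRNA. The difference was -0.85 at 2.5 h and -1.48 at 5 h (SE 0.10, adjusted p = 0.038), a factor of 2.79, and every Mbnl1 value was below every Cugbp1 value. Its last value was below the filter level of 7.38.

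The cytoplasmic dynein light intermediate chain gene Dync1li1 behaved alike at a higher signal, so that it stayed well above the filter throughout. It stood at 11.51, 11.34 and 11.14 under Cugbp1 siRNA, 10.51, 9.50 and 8.72 under Mbnl1 siRNA and 11.40, 11.31 and 11.13 in the control. Of its 0 h signal 77.5% was left under Cugbp1 siRNA and 29.0% under Mbnl1 siRNA, a difference of -1.42 (SE 0.11, adjusted p = 0.038). Minpp1, an inositol polyphosphate phosphatase, stood at 9.87, 9.92 and 10.02 under Cugbp1 siRNA and at 8.81, 8.04 and 7.67 under Mbnl1 siRNA (difference -1.29, adjusted p = 0.038). Its probe sets disagreed: with their mean the hourly slope difference went from -0.258 to -0.133 and was not called (adjusted p = 0.192). Pafah1b1 encodes LIS1, a dynein regulator, and kept 70.9% under Cugbp1 siRNA, 63.9% in the control and 35.2% under Mbnl1 siRNA (difference -1.01, adjusted p = 0.038). All 4 were about 1 log2 unit lower under Mbnl1 siRNA before the block, by -0.91, -1.0, -1.06 and -1.06 in the order named.

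This combination recurred among the 84 genes. At 0 h 59 of them (70.2%) were lower under Mbnl1 than under Cugbp1 siRNA, against 53.4% of all genes, and 30 (35.7%) were lower by over 0.5, against 5.02%. Only 6 (7.14%) were higher by over 0.5, against 4.58%. The 0 h arrays enter both quantities with opposite signs, so an error in one of them would pair a lower start with a smaller fall. The part of such an error was not tested. In 74 of the 84 genes (88.1%) the control change at 5 h was nearer that under Cugbp1 siRNA than that under Mbnl1 siRNA, against 51.4% of all genes. The median change at 5 h of the 84 was -0.14 under Cugbp1 siRNA, -0.25 in the control and -0.86 under Mbnl1 siRNA. In 13 of the 84 genes 1 or more values in the compared arms fell below the filter level, against 623 of all 9864 genes.

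**Figure D4:**
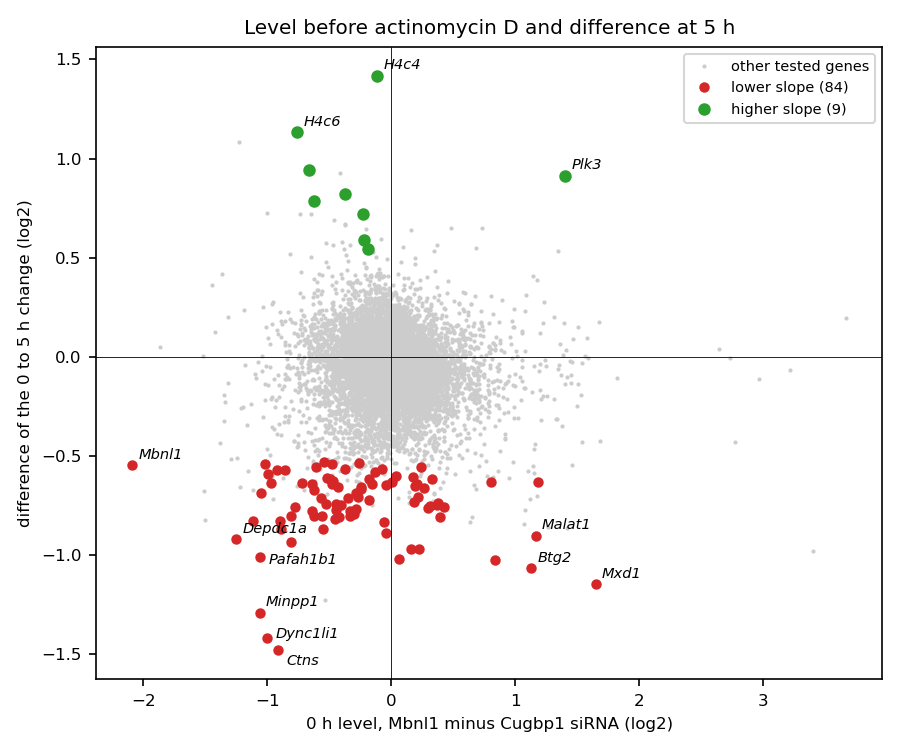
The log2 level at 0 h, Mbnl1 minus Cugbp1 siRNA (horizontal), is plotted against the difference of the 0 to 5 h change (vertical) for all tested genes, with the 84 lower slopes in red and the 9 higher slopes in green. Of the red points 59 lie left of 0, among them Ctns at -0.91 and Mbnl1 itself at -2.09, while Mxd1, Btg2 and Malat1 lie to the right.

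A smaller set of genes in this direction started higher under Mbnl1 siRNA. Mxd1, which encodes a partner of MAX that opposes MYC, stood at 8.13, 7.84 and 8.05 at 0, 2.5 and 5 h under Cugbp1 siRNA, 9.78, 8.75 and 8.55 under Mbnl1 siRNA and 8.13, 7.78 and 7.94 in the control. It kept 94.3% under Cugbp1 siRNA and 42.6% under Mbnl1 siRNA (difference -1.15, SE 0.12, adjusted p = 0.038), with every Mbnl1 value above every other. Btg2, an antiproliferative protein that binds the CCR4-NOT deadenylase, stood at 7.79, 7.36 and 7.65 under Cugbp1 siRNA and at 8.92, 7.65 and 7.71 under Mbnl1 siRNA (difference -1.06, SE 0.16, adjusted p = 0.0477). These arms met by 5 h, from a start 1.13 higher under Mbnl1 siRNA. At 2.5 h the Btg2 signal was below the filter level under Cugbp1 siRNA and, at 7.30, in the control. Ppargc1a, the coactivator of mitochondrial biogenesis, kept 70.1% under Cugbp1 siRNA and 34.5% under Mbnl1 siRNA (difference -1.02, adjusted p = 0.038) from a start 0.84 higher. In the control it kept 61.1%, with every value below the filter level. Prune1, a phosphodiesterase gene, started within 0.07 in the 2 arms and kept 45.1% and 22.3% (difference -1.02, adjusted p = 0.0397). Zfp617, a zinc finger gene, kept 64.5% and 32.9% (difference -0.97, adjusted p = 0.038). At 2.5 and 5 h its signal was below the filter level in every arm, at 7.31 and 7.37 under Cugbp1 siRNA and 6.98 and 6.56 under Mbnl1 siRNA.

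Among long noncoding RNAs 1 of 8 tested on the list was called lower (0.852% of all genes), and 7 of the 8 had a negative difference (60.6% of all genes), with a median of -0.26. Malat1, a nuclear RNA of splicing speckles, gained signal relative to other transcripts during the block. It stood at 10.48, 11.97 and 12.18 under Cugbp1 siRNA, 11.65, 12.52 and 12.45 under Mbnl1 siRNA and 10.90, 12.05 and 12.03 in the control. Its rise was to 324% of the 0 h signal under Cugbp1 siRNA, 219% in the control and 174% under Mbnl1 siRNA (difference -0.90, SE 0.11, adjusted p = 0.038). A lower slope here is thus a smaller rise and not a faster loss. Tug1, Lncpint and Pvt1, which were not called, had differences of -0.49, -0.34 and -0.31.

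Mir100hg, the host gene of a microRNA cluster, is not on that list but was among the 10 most negative slopes. It stood at 8.05, 8.10 and 8.33 under Cugbp1 siRNA, 8.27, 7.59 and 7.59 under Mbnl1 siRNA and 8.51, 8.16 and 8.01 in the control (difference -0.97, SE 0.15, adjusted p = 0.0499). Its locus on chromosome 9 holds 3 microRNA genes, whose own probe sets did not pass the filter. Of the 5 mature products in RefSeq for that locus, 1 for each microRNA gene is shown to identify the cluster, with the seed, bases 2 to 8, in capitals.
miR-100-5p, chr9:41531437-41531458: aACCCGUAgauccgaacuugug
let-7a-2-3p, chr9:41536777-41536797: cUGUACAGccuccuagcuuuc
miR-125b-5p, chr9:41581940-41581961: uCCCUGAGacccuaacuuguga
The 3 seeds differ from one another. For the let-7a-2 gene only the 3p form was given at this locus, so the seed shown is not that of a 5p form. The array reads the host transcript, so nothing was measured on these mature forms. Of 34 microRNA genes with a probe set above the filter none was called by limma, the median difference at 5 h was 0.14, and 9 were below 0. Mir320 at 0.37 (adjusted p = 0.171) and Mirlet7e at -0.32 (adjusted p = 0.141) were the extremes.

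The microRNA pathway's proteins were read as 11 mRNAs. Dicer1, the nuclease that cuts microRNA precursors, was called (0.852% of all genes were in this direction). It stood at 10.80, 10.50 and 10.24 under Cugbp1 siRNA, 10.35, 9.79 and 9.01 under Mbnl1 siRNA and 10.94, 10.66 and 10.27 in the control, with 67.8%, 39.7% and 63.0% left at 5 h (difference -0.77, SE 0.10, adjusted p = 0.038). The median difference of the 11 was -0.22, with 8 below 0, and the GW182 family genes Tnrc6a and Tnrc6c had -0.71 (adjusted p = 0.0646) and -0.47 (adjusted p = 0.0979) without being called.

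The mRNAs of the siRNA targets were followed through the block as well. Mbnl1 itself was called, with log2 signals of 12.33, 12.42 and 12.43 under Cugbp1 siRNA, 10.24, 10.05 and 9.79 under Mbnl1 siRNA and 12.43, 12.5 and 12.44 in the control (difference -0.55, SE 0.08, adjusted p = 0.0454). Celf1 stood at 9.96, 9.56 and 9.52 under Cugbp1 siRNA, 11.19, 11.13 and 11.03 under Mbnl1 siRNA and 11.66, 11.74 and 11.73 in the control. Its difference of 0.28 (SE 0.14, adjusted p = 0.393) was not called. In each targeted arm the remaining mRNA at 5 h was the lowest of the 3 arms, 73.3% for Mbnl1 and 73.7% for Celf1. The relatives Celf2, Mbnl2 and Mbnl3 had differences of -0.12, -0.06 and -0.22, none called.

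The mRNAs with the fastest loss went both ways. The 986 genes with the largest fall in the control arm over 5 h had a median change of -1.10 there, -0.96 under Cugbp1 siRNA and -1.07 under Mbnl1 siRNA. Their median difference was 0.01 at 2.5 h and -0.08 at 5 h, the quartiles at 5 h were -0.25 and 0.07 (-0.15 and 0.06 over all genes), and 63.0% were below 0 against 60.6% of all genes. Among them 6 were called higher, 0.609% against 0.0912% of all genes, and 4 of these were histone genes. Another 11 were called lower, 1.12% against 0.852%. The tenth of genes with the largest rise had a median difference of -0.00. None of 30 immediate early transcription factor genes was called (median -0.13), and 2 of 44 feedback and cytokine mRNAs were, Plk3 higher and Btg2 lower, against 0.0912% and 0.852% of all genes.

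Single regulators of this kind had unequal times. Jun stood at 11.26, 9.28 and 9.74 under Cugbp1 siRNA and at 11.19, 9.54 and 9.66 under Mbnl1 siRNA, so its difference was 0.33 at 2.5 h and -0.01 at 5 h. Dusp1, a MAP kinase phosphatase, had 0.33 and -0.01, and Ccn1, a matricellular YAP target, 0.39 and -0.12. Myc kept 19.2% under Cugbp1 siRNA and 23.8% under Mbnl1 siRNA, with differences of 0.42 and 0.31. Hes1, a Notch target, had 0.44 and 0.27, and Cited2, a transcriptional coregulator, 0.22 and 0.19. Id2, an inhibitor of bHLH factors, had -0.55 and -0.13, Egr1 0.12 and -0.22, and Junb -0.08 and -0.60. The adjusted p for the slope was between 0.132 and 0.983 in all 9, so no difference was called. The myogenic factors Myod1 and Myf5 had 5 h differences of -0.23 (adjusted p = 0.245) and -0.05 (adjusted p = 0.82), and Actb had -0.01 (adjusted p = 0.952). Fos, Ier2 and Myog were below the filter, and Cdkn1a and Gapdh were not analysed here.

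Of the 41 gene lists examined 12 held a called gene. The counts below stand against 0.852% of all genes called lower, 0.0912% called higher, 60.6% below 0 and 2.22% below -0.5 at 5 h. Zinc finger genes named Zfp were the largest list, with 166 tested, 5 called lower and 1 higher, a median of -0.12 and 121 below 0, 12 of them below -0.5. Zfp729a was called beside Zfp617, with 91.6% left under Cugbp1 siRNA and 52.3% under Mbnl1 siRNA (difference -0.81, adjusted p = 0.038). The p53 list had 2 lower calls, Btg2 and Trp53inp1, and 1 higher call, Plk3, among 21 genes, with a median of -0.14 and 18 below 0. Mitotic genes had Plk1 and Ccnf called higher and Depdc1a, a mitotic and cell-cycle gene, called lower (difference -0.92, adjusted p = 0.038) among 53, with a median of 0.02 that turned to -0.04 under the ribosomal protein scaling. The 18 deadenylation genes had only Btg2 called and a median of -0.08, and Tob1, also a deadenylase partner, had -0.57 (adjusted p = 0.0605).

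At shares of 0.852% and 0.0912% a short list may hold no call. None was called by limma among 13 circadian clock genes, with a median of -0.25 and 11 below 0 (60.6% of all genes were), or among 44 DNA replication genes, with a median of 0.10 and 9 below 0. Both medians kept their sign under each scaling, as did that of the histones, which was 0.55 with equal ribosomal protein medians and 0.70 with equal overall medians. Cytosolic ribosomal protein genes had a median of 0.02 (-0.05 and 0.10 under these scalings), oxidative phosphorylation subunits -0.00 and proteasome subunits -0.01, with none called among 55, 75 and 36. Mrps30 (difference -0.61, adjusted p = 0.0397) was the called gene of 75 mitochondrial ribosomal proteins, Eif2b1 (-0.53, adjusted p = 0.0477) that of 37 translation factors, and Scarna13 (-0.64, adjusted p = 0.0497) that of 22 small nucleolar and Cajal body RNAs.

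**Figure D5:**
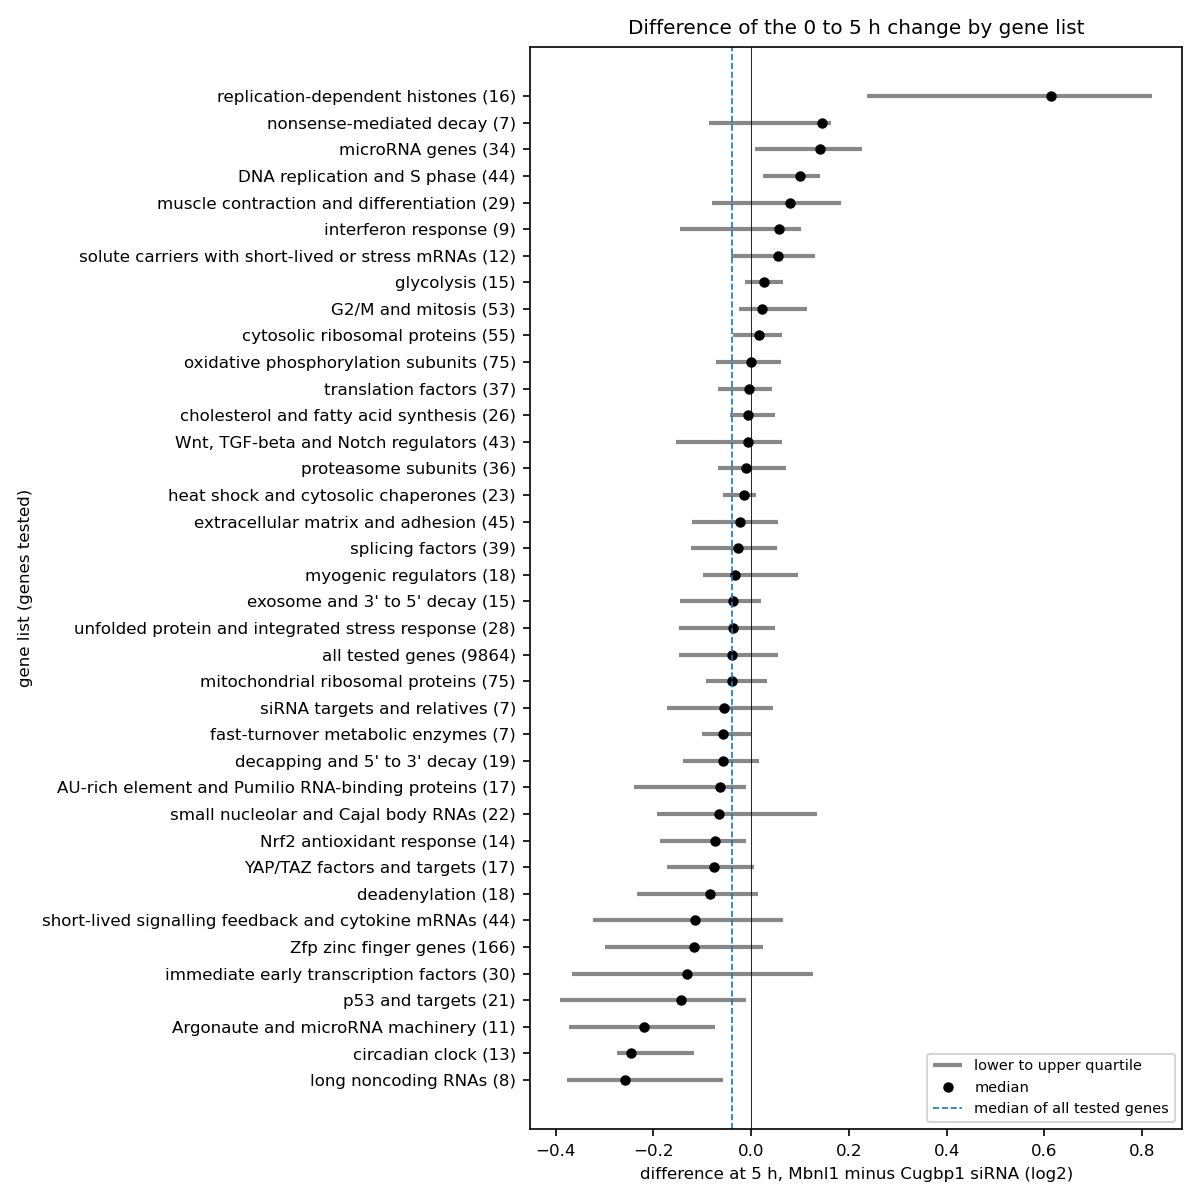
The median difference of the 0 to 5 h change, Mbnl1 minus Cugbp1 siRNA, is plotted for each list with at least 7 tested genes, with bars from the lower to the upper quartile, the number tested in brackets and a dashed line at the median of all genes, -0.04. Histones lie at 0.61, apart from all other lists, and the lowest medians are those of long noncoding RNAs at -0.26, circadian clock genes at -0.25 and microRNA machinery at -0.22.

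The step model looked for differences already complete at 2.5 h, and its most extreme genes are given although none was called (lowest adjusted p = 0.232 by limma). Ankrd1, a muscle stress-response gene, stood at 12.63, 11.71 and 10.93 under Cugbp1 siRNA, 13.11, 12.77 and 12.05 under Mbnl1 siRNA and 13.02, 12.34 and 11.65 in the control, a step of 0.61 (SE 0.08). Bst2, an antiviral membrane protein, had a step of 0.62, Pgf, a growth factor of the VEGF family, 0.56, H4c14 0.86 and AY036118 0.63. Fbxo32, the ubiquitin ligase subunit atrogin-1, stood at 8.27, 7.21 and 7.10 under Cugbp1 siRNA, 9.68, 7.92 and 7.65 under Mbnl1 siRNA and 8.26, 7.39 and 7.21 in the control, a step of -0.78 (SE 0.09). Slc41a1, a magnesium transporter, had -0.70, Pdik1l -0.65, Zfp518a -0.65 and Btg2 -0.95. A large step statistic needs like differences at 2.5 and 5 h, so that likeness, 0.58 and 0.65 for Ankrd1, comes with the choice of these genes.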

How the data were processed

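Total RNA of 9 samples was hybridised to Affymetrix mouse gene arrays, per the labels. The deposited values are intensities on a linear scale, made by the authors with RMA in Affymetrix Expression Console per the submitters' processing notes, with versions not given in the sources used here. RMA equalises the arrays, so a change is relative to other transcripts and not absolute. Here log2 was taken. Of 35556 probe sets, 21789 had 1 gene symbol, 1621 several and 12146 none. The probe set with the highest mean stood for a gene, and genes whose mean log2 signal reached the 50th percentile, 7.38 (intensity 167.1), were tested. limma 3.58.1 (R 4.3.3, lmFit and eBayes) was run on all 9 arrays with siRNA, a shared time factor and a line over hours per siRNA, or a step, and p-values were adjusted by Benjamini-Hochberg over 9864 genes. Differences at 2.5 and 5 h are from single arrays; they share the 0 h arrays. SEs are 5 times that of the hourly slope, or those of the step. With 1 array per siRNA and time, p-values measure only departures from the model, and precision is limited by how few arrays there are. On simulated data with 9864 genes, the slope test recovered 89 of 100 differences of 0.2 per h and 29 of 100 of 0.1 per h, with 4 unchanged genes called, and the step test 79 of 100 of 0.8 and 1 of 100 of 0.4. The simulated noise was independent and normal, drawn from the fitted error distribution, so the assumptions of the model held by construction. It held no error between cultures or arrays, so the 4 give no estimate of false calls in the real data.

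Named genes were the 10 largest called slopes in each direction whose differences at 2.5 and 5 h share a sign (all 9 higher ones), the 5 most extreme step statistics in each direction, the 2 largest called genes of each list and a fixed set of regulators. Others (H1f2, H2bc3, H2bc4, Tnrc6a, Tnrc6c, Tob1, Tug1, Lncpint, Pvt1, Mir320, Mirlet7e, Trp53inp1 and those under the other observations) were chosen after their values were seen. The members and lists were chosen with earlier results of these data known. Alternatives were scaling, filter, probe set choice, model, eBayes option and each array left out. Adipocyte, bone and cartilage, fibroblast and macrophage marker lists had 2, 2, 6 and 2 genes tested and none called. Sequences are from RefSeq tables; 3′ UTR motifs were not analysed here.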

Additional observations from a re-analysis of the deposited data

Results flagged for a closer look

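The slope test is a direct test of a difference between the 2 siRNA arms, and it met the threshold for 27 of the genes that the naming rule gave. The rule took these 27 because they were called, so the count follows from the choice and is no further result. They are listed by hourly slope difference, Mbnl1 minus Cugbp1 siRNA, in log2 per h. Higher slopes were those of the histone genes H4c4 (0.284), H4c6 (0.227), H2bc14 (0.188) and H1f1 (0.157), and of Plk3 (0.183), Ccnf (0.164), Plk1 (0.145), Zfp524 (0.119) and Vax1 (0.109). The lowest slopes were those of Ctns (-0.296), Dync1li1 (-0.284), Minpp1 (-0.258), Mxd1 (-0.229), Btg2 (-0.213), Ppargc1a (-0.204), Prune1 (-0.204), Pafah1b1 (-0.202), Zfp617 (-0.194) and Mir100hg (-0.194). Depdc1a (-0.184), Malat1 (-0.180), Zfp729a (-0.161), Dicer1 (-0.155), Scarna13 (-0.128), Mrps30 (-0.123), Mbnl1 (-0.109) and Eif2b1 (-0.107) followed. Trp53inp1 (-0.156), named outside the rule, also met it.

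With each of the 6 compared arrays left out in turn, no gene of the 27 remained called in more than 2 of 6 cases. Ctns, Dync1li1, Minpp1, Mxd1, Pafah1b1, Depdc1a, Plk3, Ccnf, Malat1, Btg2, Mir100hg and H1f1 remained called in 2 of 6. H4c4, H4c6, H2bc14, Ppargc1a, Zfp617, Zfp729a, Dicer1, Mbnl1, Plk1, Prune1, Mrps30, Eif2b1, Scarna13, Zfp524 and Vax1 did in 1 of 6.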

How the results depend on the processing

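The number of genes with a higher and a lower hourly slope, 9 and 84, became 0 and 0 with equal medians of all tested genes, with the filter at the 25th percentile, with no filter and without the shared time factor. In those limma fits 1620, 2037, 2350 and 858 genes had an unadjusted p under 0.05. The counts became 17 and 121 with the filter at the 75th percentile, 5 and 28 with only the 6 arrays of both arms, 38 and 288 with an intensity trend, 13 and 299 with equal ribosomal protein medians, 9 and 77 with robust eBayes, and 9 and 96 with the mean of probe sets. Leaving out 1 array gave 0 to 56 higher and 0 to 418 lower slopes. Of the 93 calls, 93 stayed called with equal ribosomal protein medians and with the trend, 90 with the mean of probe sets, 86 with robust eBayes and 32 with 6 arrays. The cause was not tested.

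For the step, 3 higher and 2 lower calls appeared with the trend and 0 to 3 lower calls with 1 array left out, and the other fits gave 0. A step could not be fitted without a 0 h array. The median difference of the 10% of genes with the largest fall in the control arm, -0.084, was -0.150 with equal ribosomal protein medians, -0.000 with equal overall medians and -0.085 to -0.064 otherwise. The median of all genes moved from -0.04 to -0.11 and 0.04 under these scalings. List medians moved in the same way, so those near 0 have no settled direction. That of the interferon response list, for example, went from 0.057 to -0.009 and 0.141, and that of the deadenylation list from -0.084 to -0.150 and -0.000. No paired analysis was possible because each siRNA and time has 1 array.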

Other observations

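Several regulators outside the gene lists were among the 84 lower slopes, and they were chosen after their values were seen. Nr3c1, the glucocorticoid receptor, kept 86.1% of its 0 h signal at 5 h under Cugbp1 siRNA and 49.3% under Mbnl1 siRNA (difference -0.80, adjusted p = 0.038 by limma). Ahr, the aryl hydrocarbon receptor, kept 67.3% and 35.2% (difference -0.93, adjusted p = 0.0452). Stat3, a transcription factor of cytokine signalling, kept 103% and 70.0% (difference -0.56, adjusted p = 0.0454), and Myh9, a nonmuscle myosin heavy chain, 102% and 66.6% (difference -0.62, adjusted p = 0.0397). Paip1, a partner of the poly(A)-binding protein, kept 109.7% and 74.0% (difference -0.57, adjusted p = 0.0465). All 5 had a lower signal at 0 h under Mbnl1 siRNA.

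Sphk1, a sphingosine kinase, and Trib2, a pseudokinase, started higher under Mbnl1 siRNA. Sphk1 kept 68.3% under Cugbp1 siRNA and 44.1% under Mbnl1 siRNA (difference -0.63, adjusted p = 0.038), and Trib2 61.6% and 36.7% (difference -0.75, adjusted p = 0.0402).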
